A study of Mus musculus with 7 samples.

Results

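The Lgi genes and their Adam receptors were followed through the single-cell transcriptome of the mouse V-SVZ, the neurogenic ventricular-subventricular zone in the lateral wall of the lateral ventricles. The family was taken as 7 genes, listed by symbol, of the 32285 features counted: the ligands Lgi1, Lgi2, Lgi3 and Lgi4, and the receptors Adam11, Adam22 and Adam23. The members were chosen by measured values, since the UMI counts of Lgi1 were higher in NSC-like cells of Prdm16 cKO mice, and this contrast in these cells is described below without a test. All 7 genes were detected, and none was left out.

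LGI proteins (leucine-rich glioma inactivated) are secreted and carry leucine-rich repeats and EPTP repeats, through which they bind ADAM11, ADAM22 and ADAM23. These receptors are membrane proteins of the ADAM family that lack protease activity. At synapses, LGI1 joins ADAM22 and ADAM23 across the cleft and is tied to PSD-95 and AMPA receptors, and loss of LGI1 causes epilepsy in mice and humans. In peripheral nerve, LGI4 from Schwann cells acts through ADAM22 on axons and is needed for myelination.

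The 7 libraries comprised 3 of Control mice (Prdm16 flox/flox, written Prdmflox/flox in the labels), 3 of Prdm16 cKO mice (hGFAP-Cre+/-; Prdm16flox/flox) and 1 of Prdm16-Vcam1 DKO mice (hGFAP-Cre+/-; Prdm16flox/flox; Vcam1flox/flox). All carried floxed Prdm16, and the labels name no Cre for Control mice. Each library pooled the tissue of 2 to 3 mice of both sexes aged 31 to 33 postnatal days. hGFAP-Cre is active in radial glia from embryonic stages and in astrocytes, and so also reaches the neurons, glia and ependymal cells that descend from them. No library was of mice with Cre alone, and p-values measure the spread between pooled libraries.

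The libraries held 45758003 to 141353017 UMIs (unique molecular identifiers, which count each captured mRNA molecule once). A total of 43346 cells passed the filters. cKO libraries 2 and 3 kept 49.8% and 47.2% of their barcodes and the other libraries 70.2% to 74.7%. Libraries shared up to 70 cell barcodes in a pair. Prdm16 was detected at 62.5 to 73.9 CPM (counts per 1000000 UMIs) in control and 46.0 to 54.8 in cKO NSC-like cells, and Vcam1 at 88.5 in the DKO library against 108 to 155 in control libraries. Counting at 3′ ends does not show whether a floxed exon was removed, so neither value checks the deletion. Clusters were named from marker genes, and 11 types were compared: NSC-like (neural stem cell), TAP-like (transit amplifying precursor), neuroblast-like, neuron-like, astrocyte-like, ependymal-like, OPC-like (oligodendrocyte precursor), oligodendrocyte-like, microglia-like, endothelial-like and mural-like cells. NSC-like cells (5566) were led by Thbs4 and Gfap and also held all 8 astrocyte markers, and 2 clusters of 3337 and 1663 cells with few UMIs were left unnamed.

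Levels are given in CPM, the UMIs of a gene in all cells of 1 type in 1 library scaled to the total of those cells. For members and listed genes in the named types they are after TMM scaling between libraries. For Prdm16 and Vcam1, summed marker lists and single clusters they are without it. They are compared for 1 gene across cells, never between genes. In GRCm38, Lgi1 lies at chr19:38264536-38312214 on the plus strand, Lgi2 at chr5:52533517-52566462 on the minus strand, Lgi3 at chr14:70530685-70538324 on the plus strand and Lgi4 at chr7:31059342-31070935 on the plus strand. Adam11 lies at chr11:102761439-102780262 on the plus strand, Adam22 at chr5:8072352-8368160 on the minus strand and Adam23 at chr1:63445891-63596276 on the plus strand. Exons of Lgi1 and Lgi4 overlap genes of the opposite strand, Gm42723 and Fxyd3. The coding sequences of any 2 ligands or any 2 receptors were 61.2% to 66.5% identical.

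Lgi1 and Adam23 are the members on which the genotype comparisons turn, and their promoters are shown with the GC box (GGGCGG, either strand) in capitals. RefSeq (GRCm38.p6) gave promoters for 4 of the 7 members: Lgi1, Lgi2, Adam22 and Adam23. The windows span 250 bases before to 50 bases after the RefSeq start, at chr19:38264437-38264736 (plus strand) for Lgi1 and chr1:63445641-63445940 (plus strand) for Adam23.
Lgi1: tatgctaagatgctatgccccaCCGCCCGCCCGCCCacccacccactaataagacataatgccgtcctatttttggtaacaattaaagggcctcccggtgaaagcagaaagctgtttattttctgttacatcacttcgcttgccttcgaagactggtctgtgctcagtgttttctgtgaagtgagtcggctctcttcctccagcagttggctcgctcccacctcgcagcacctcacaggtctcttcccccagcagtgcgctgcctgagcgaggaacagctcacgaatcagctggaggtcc
Adam23: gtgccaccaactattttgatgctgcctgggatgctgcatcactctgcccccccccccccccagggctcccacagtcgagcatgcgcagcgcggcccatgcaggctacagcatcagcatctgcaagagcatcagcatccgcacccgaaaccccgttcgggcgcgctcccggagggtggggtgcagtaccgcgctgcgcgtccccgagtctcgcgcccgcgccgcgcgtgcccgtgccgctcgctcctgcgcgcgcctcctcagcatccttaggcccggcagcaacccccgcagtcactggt
The Lgi1 window held 3 GC boxes, all on the minus strand and overlapping each other, and the Adam23 window held 0. A GC box was present in 35.7% of 32851 promoters of the same length. The Adam23 window had a G+C content of 70.0% with 31 CpG dinucleotides, and the Lgi1 window 54.0% with 13, where the median of all promoters was 52.7% with 7. The TATA box (TATAAA), found in 13.6% of promoters, was in neither window.

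In control mice the ligands were divided among different cells. Of 3764 control UMIs of Lgi1, 56.1% lay in neuron-like cells, which were 5.42% of control cells, and 14.8% in ependymal-like cells. Of 929 UMIs of Lgi2, 66.7% lay in neuron-like cells. Lgi3 was an oligodendrocyte gene, with 87.5% of its 19560 UMIs in oligodendrocyte-like cells and 6.72% in OPC-like cells. Lgi4 was a gene of NSC-like and astrocyte-like cells, which held 54.7% and 25.4% of its 5070 UMIs. The receptors were spread more widely: neuron-like cells held 28.0% of 1015 Adam11 UMIs, 24.3% of 8259 Adam22 UMIs and 31.2% of 8485 Adam23 UMIs. Oligodendrocyte-like cells held a larger part of Adam22, 31.7%. These shares pool the 3 control libraries and also follow the depth and number of the cells. Oligodendrocyte-like cells and the larger neuron-like cluster had a median of 2.65 and 1.81 times the UMIs of their library medians, over all libraries. Control library 3 gave 817 neuron-like cells, against 179 and 194 in control libraries 1 and 2.

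**Figure D1:**
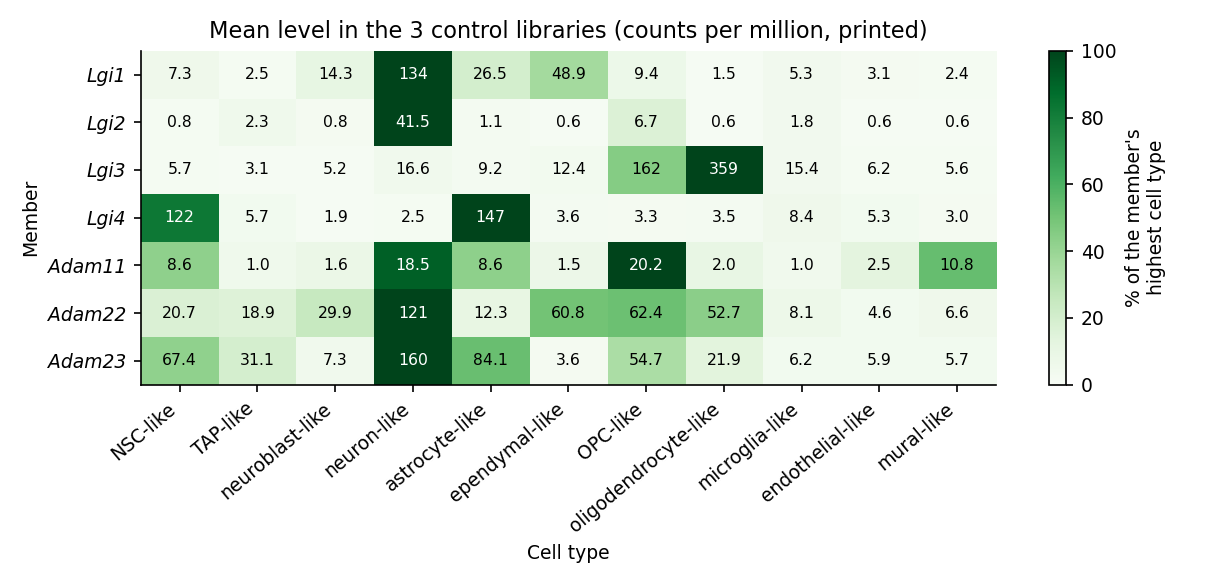
Mean level of each member (row) in each cell type (column) over the 3 control libraries; the printed value is the level in CPM and the shade is the percentage of that member's highest cell type. Lgi3 is highest in oligodendrocyte-like cells (359), Lgi4 in astrocyte-like (147) and NSC-like (122) cells, and Lgi1, Lgi2, Adam22 and Adam23 in neuron-like cells.

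Lgi1, the ligand tied to AMPA receptors, stood at 158, 119 and 124 CPM in neuron-like cells of control libraries 1, 2 and 3. Ependymal-like cells came next, at 48.9 ± 20.9 CPM (SD, n = 3), followed by astrocyte-like cells at 26.5 ± 5.54, and the ranges of these 2 types overlapped. Neuroblast-like cells (14.3 ± 0.977) stood below them and above OPC-like (9.42 ± 1.63), NSC-like (7.31 ± 0.296) and microglia-like (5.27 ± 4.0) cells, which overlapped in turn. The lowest level was in oligodendrocyte-like cells, 1.49 ± 1.10 CPM. Microglia and endothelial cells are not known as sources of these genes, and their levels serve here as a guide to free RNA. The control level in NSC-like cells overlapped that of microglia-like cells (0.883 to 8.73 CPM) and lay above that of endothelial-like cells (1.91 to 4.38 CPM).

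Lgi2, a neuronal ligand also linked to epilepsy, stood at 56.3, 32.5 and 35.6 CPM in neuron-like cells. OPC-like cells followed at 6.74 ± 2.08 CPM (SD, n = 3), and the remaining types were at 2.27 CPM or below, with ranges that overlapped from TAP-like cells downward. At the finer clustering described below, Lgi2 stood at 14.7 ± 3.21 CPM in control libraries in the cluster led by Pdgfra, against 1.31 ± 0.718 in that led by Bmp4 and Gpr17. Together these clusters were not made of OPC-like cells alone.

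Lgi3 stood at 336, 416 and 326 CPM in oligodendrocyte-like cells of control libraries 1, 2 and 3, and at 163, 205 and 117 in OPC-like cells. No control library overlapped between these types or with neuron-like cells, the third in order at 16.6 ± 2.79 CPM (SD, n = 3). The other types were at 3.12 to 15.4 CPM, with microglia-like cells at the upper end, from 6.20 to 27.4.

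A finer clustering, at resolution 0.3 in place of 0.15, divided the oligodendrocyte lineage into 4 clusters, which are described here by their leading genes, in CPM without TMM scaling. Lgi3 stood at 20.6 ± 12.7 CPM (SD, n = 3 control libraries) in 902 cells led by Pdgfra, the receptor that marks OPCs. It stood at 270 ± 71.8 in 1524 cells led by Bmp4 and Gpr17, genes of OPCs committed to differentiation. In 3154 cells led by Ptgds and Opalin, a myelin protein gene, it stood at 456 ± 64.4, and in 1236 cells led by Klk6, a protease gene of mature oligodendrocytes, at 185 ± 48.1. Lgi3 was itself among the 10 leading genes of the Opalin cluster, so these levels are a description.

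The receptors divided the same clusters in another way. Adam23, at synapses the presynaptic receptor, stood at 40.9 ± 9.83 CPM in the Pdgfra cluster and 52.2 ± 6.65 in the Bmp4 and Gpr17 cluster. It was 11.7 ± 0.492 in the Opalin cluster and 47.5 ± 6.94 in the Klk6 cluster. The cluster with the highest Lgi3 thus had the lowest Adam23 of the 4, in each of the 7 libraries. Adam22 was more even, from 47.3 ± 4.94 in the Klk6 cluster to 81.5 ± 8.56 in the Pdgfra cluster. Adam11 fell into 2 levels, 17.8 ± 7.33 and 15.5 ± 7.65 in the precursor clusters and 1.76 ± 0.644 and 2.15 ± 0.883 in the myelinating ones. Lgi1 and Lgi2 were highest in the Pdgfra cluster, at 22.1 ± 3.05 and 14.7 ± 3.21 CPM.

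**Figure D2:**
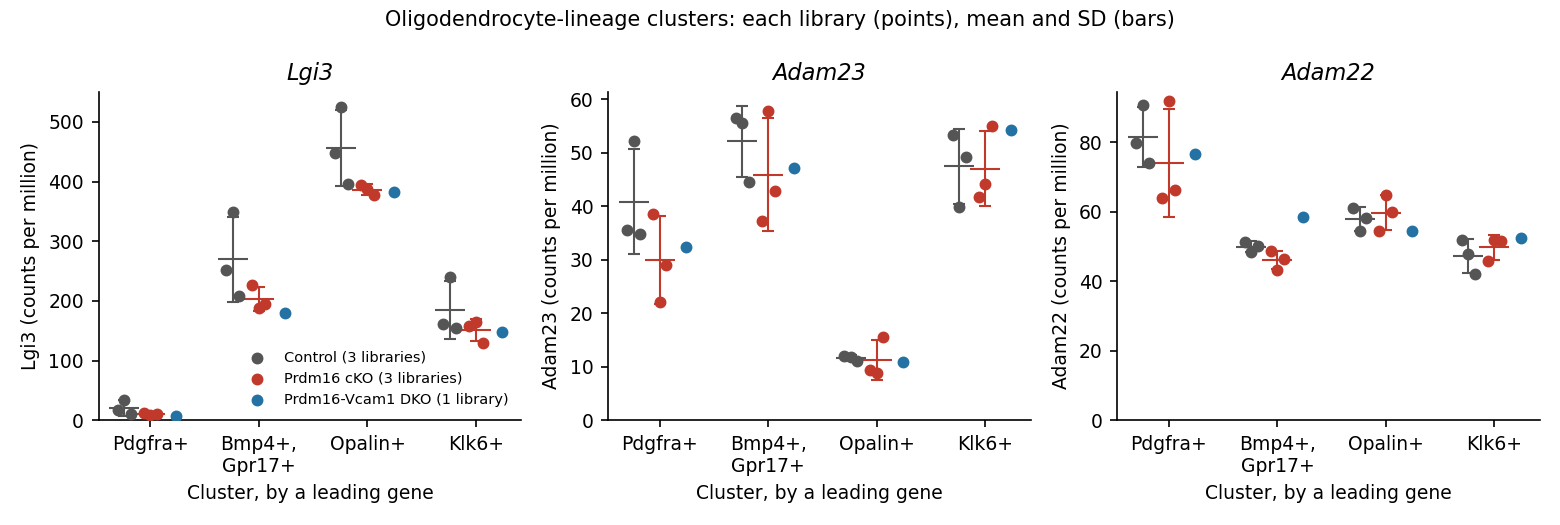
Lgi3, Adam23 and Adam22 (CPM, 1 panel each) in the 4 oligodendrocyte-lineage clusters; points are libraries, coloured by genotype, and bars are the mean and SD of the 3 control or 3 cKO libraries. Adam23 is lowest in the Opalin cluster, at 8.78 to 15.5 in the 7 libraries, where Lgi3 is highest, at 377 to 524.

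Lgi4, known for its part in peripheral myelination, stood at 128, 169.7 and 144 CPM in control astrocyte-like cells and 108, 137 and 121 in control NSC-like cells, and the 2 ranges overlapped. The next type, microglia-like cells, was at 8.38 ± 2.70 CPM (SD, n = 3), and the others were at 1.90 to 5.69. Ependymal-like cells, which share an origin in radial glia with both, were at 3.62 ± 1.68. Oligodendrocyte-like cells were at 3.49 ± 0.965, within the range of cells taken as background.

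Adam11, a receptor known from nerve terminals of the cerebellum, was measured by few UMIs. It was highest in OPC-like (20.2 ± 6.71 CPM, SD, n = 3) and neuron-like (18.5 ± 5.0) cells, which overlapped. Mural-like (10.8 ± 4.25), astrocyte-like (8.63 ± 3.26) and NSC-like (8.58 ± 4.26) cells overlapped in turn, and the other types were at 2.55 CPM or below.

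Adam22, the receptor that binds PSD-95, stood at 140.1, 101 and 122 CPM in control neuron-like cells. OPC-like (62.4 ± 1.81, SD, n = 3) and ependymal-like (60.8 ± 1.61) cells overlapped with each other, and oligodendrocyte-like cells (52.7 ± 2.11) stood just below them. Neuroblast-like cells had 29.9 ± 2.71 CPM, NSC-like cells 20.7 ± 1.13 and TAP-like cells 18.9 ± 1.69, the last 2 overlapping. Astrocyte-like cells were at 12.3 ± 1.96, and no control library of theirs reached NSC-like or TAP-like cells.

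Adam23 stood at 172, 150.1 and 159 CPM in control neuron-like cells, well apart from every other type. Astrocyte-like cells (84.1 ± 13.3, SD, n = 3) and NSC-like cells (67.4 ± 11.0) overlapped, and OPC-like (54.7 ± 6.23), TAP-like (31.1 ± 1.34), oligodendrocyte-like (21.9 ± 1.33) and neuroblast-like (7.34 ± 2.14) cells followed without overlap. Along the neurogenic lineage it was thus lower at each step from NSC-like to TAP-like to neuroblast-like cells, in every one of the 3 control libraries. The neuron-like cells, most of which here are striatal, are not taken as the next step of this lineage. Ependymal-like cells had the lowest level, 3.58 ± 1.55 CPM.

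The neuron-like cells comprised 2153 cells led by Penk, a gene of striatal projection neurons, and 446 cells led by Sst and Npy, genes of interneurons, some with Neurod1. In the striatal cluster Lgi1 stood at 126, 113 and 108 CPM in control libraries 1, 2 and 3, and in the Sst and Npy cluster at 314, 228 and 229. Adam23 was the other way round, at 218, 158 and 158 in the striatal cluster and 70.7, 89.2 and 89.9 in the other. The Sst and Npy cluster held 15 to 76 cells per control library.

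For each member, the 3 genes most alike in level over the 11 types were taken from 12359 genes by Pearson correlation of control means of log2(CPM + 1), with the 11 types as points that share libraries. Lgi1 was nearest to Cacna2d2 (r = 0.964), a calcium channel subunit gene, Tspoap1 and Cbarp, and Lgi2 to Fam135b (r = 0.980), Gpr149 and Ppp4r4. Lgi3 was nearest to Tmeff2 (r = 0.977), Secisbp2l and Cdk18, and Lgi4 to Cldn10 (r = 0.970), Ntsr2 and Slc1a2, the last a glutamate transporter gene of astrocytes. Adam11 was nearest to Cdh11 (r = 0.909), Wasl and Uggt2, Adam22 to Kif3a (r = 0.955), Btbd8 and Ccdc92, and Adam23 to Actr3b (r = 0.921), Zdhhc21 and Nudt19. Cldn10 and Slc1a2 were among the markers that named astrocyte-like cells.

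In NSC-like cells, the contrast that chose the family, Lgi1 stood at 7.16, 7.65 and 7.12 CPM in control libraries 1, 2 and 3, at 15.4, 24.9 and 26.6 in cKO libraries 1, 2 and 3 and at 9.04 in the DKO library. All cKO libraries were above all control libraries, and the DKO library was between them, nearer to control. In these cells 18.3% of all genes had cKO and control libraries that did not overlap, in either direction. The fitted difference of cKO and control was 1.61 ± 0.24 (log2, SE), and 0.31 ± 0.33 for the DKO library. It was 1.45 within the libraries of Cell Ranger 6.0.1 (2 against 2) and 1.90 within those of 6.1.1 (1 against 1). The highest level of microglia-like cells in a cKO library was 11.2 CPM. Neuron markers, where most Lgi1 lies, summed to 688 to 934 CPM over 8 genes in cKO and 756 to 923 in control NSC-like cells. The marker lists of 2 other types did not overlap between the genotypes in these cells. Neuroblast markers (8 genes, none at 0) summed to 560 to 729 CPM in control, 232 to 479 in cKO and 583 in the DKO library, and mural markers (7 genes, at most 1 at 0) to 114 to 145, 87.05 to 112 and 97.8. Their part in the levels of the members was not tested.

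Lgi1 was found in a small share of NSC-like cells. With each cell thinned to 2000 UMIs, 0.940%, 1.36% and 1.15% of cells of control libraries 1, 2 and 3 had a UMI, with exact 95% binomial intervals reaching from 0.452% to 2.94% in all. In cKO libraries 1, 2 and 3 the shares were 2.58% (1.64% to 3.85%), 6.60% (3.66% to 10.8%) and 4.76% (3.28% to 6.66%), and in the DKO library 1.38% (0.716% to 2.40%). Thinning left out 78, 5 and 4 control cells, 12, 2 and 5 cKO cells and 3 DKO cells. The thinned shares were 0 to 2.05% in microglia-like and 0 to 1.47% in endothelial-like cells of the 7 libraries, and the interval of cKO library 1 reached below the highest of these. Before thinning, the shares were 4.29% to 6.29% in control libraries and 7.64%, 21.0% and 20.5% in cKO libraries, whose median depth was 5268, 11423 and 10421 UMIs per NSC-like cell, against 5329.5 to 9471 in control libraries. The intervals cover counting error only.

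**Figure D3:**
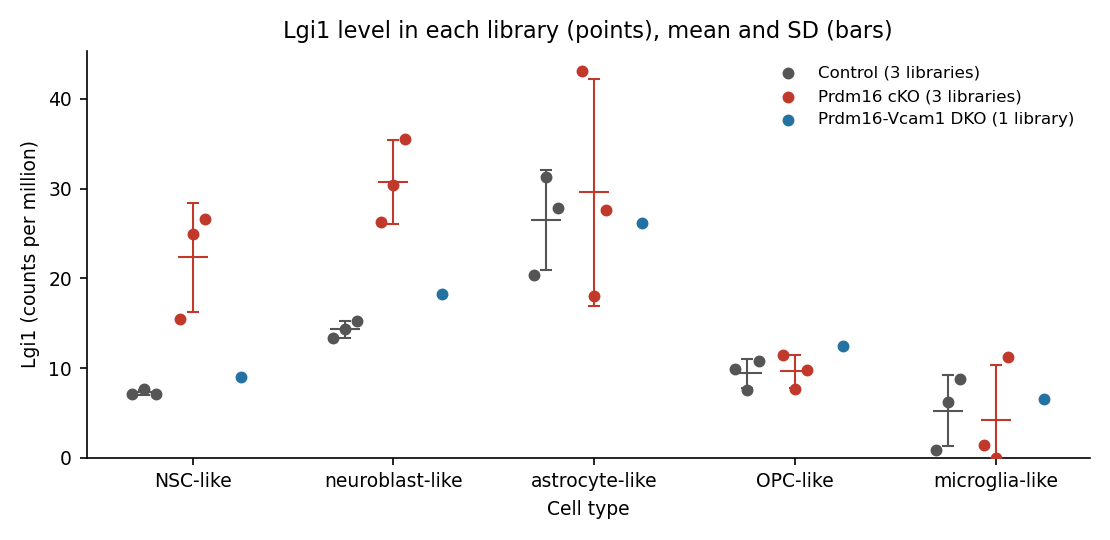
Lgi1 level (CPM) in 5 cell types; points are libraries, and bars are the mean and SD of the 3 control (grey) or 3 cKO (red) libraries, beside the single DKO library (blue). The cKO points lie above the control points in NSC-like and neuroblast-like cells and among them in astrocyte-like, OPC-like and microglia-like cells.

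Of the other members in NSC-like cells, Adam23 stood at 60.2, 80.0 and 61.9 CPM in control, 43.1, 31.1 and 32.3 in cKO and 31.7 in the DKO library, without overlap, a difference of -0.91 ± 0.18 (log2, SE) for cKO. Adam11 was 6.77, 13.4 and 5.53 in control, 4.36, 3.61 and 3.62 in cKO and 2.37 in the DKO library, again without overlap. Lgi3 was 3.64, 5.997 and 7.59 in control and 7.05, 13.01 and 16.1 in cKO, which overlapped, at levels that microglia-like cells also reached. The 8 oligodendrocyte markers summed to 749.6 to 1278 CPM in cKO and 1101 to 1342 in control NSC-like cells. Lgi4 ranged from 108 to 137 in control and 95.02 to 112 in cKO libraries and Adam22 from 19.4 to 21.6 and 18.8 to 27.6, both with overlap. Lgi2 did not pass the filter on low counts there.

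Outside NSC-like cells, 57 of 70 pairs of a member and a cell type passed the filter on low counts, and 13 did not, 6 of them in microglia-like cells. By edgeR, 1 of the 57 was called between cKO and control at an adjusted p under 0.05, with 4 at an unadjusted p under 0.05. Over the same 10 types 0.149% of all genes tested were called, and 5.37% had an unadjusted p under 0.05. Groups without overlap occurred in 6 of the 57 pairs, where 10.8% of all genes tested showed none, a share near that of the members.

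The 1 called pair was Adam23 in astrocyte-like cells. It stood at 80.9, 98.8 and 72.7 CPM in control libraries 1, 2 and 3, at 37.1, 42.1 and 50.0 in cKO libraries 1, 2 and 3 and at 37.1 in the DKO library. Every library with Cre was below every control library. Adam23 fell by 0.95 ± 0.18 on the log2 scale (SE; edgeR quasi-likelihood test, adjusted p = 0.0121), 1.93-fold lower in cKO mice, where 1.28% of genes were called in this type. The difference was -1.18 within the libraries of Cell Ranger 6.0.1 and -0.54 within those of 6.1.1. Without control library 2 or cKO library 2 the edgeR adjusted p was 0.0826 and 0.0842, past the threshold. Neuron markers summed to 237 to 526 CPM in cKO and 183 to 368 in control astrocyte-like cells, and astrocyte markers to 16082 to 18545 and 16950 to 18754. The lists of 3 other types did not overlap between the genotypes in astrocyte-like cells. OPC markers (7 genes, up to 4 at 0) summed to 40.02 to 65.03 CPM in control, 16.98 to 39.9 in cKO and 33.3 in the DKO library. Neuroblast markers (8 genes, none at 0) summed to 120.1 to 146 in control, 67.9 to 103 in cKO and 143 in the DKO library, and endothelial markers (7 genes, at most 1 at 0) to 11.2 to 29.6, 31.4 to 57.1 and 47.2. Their part in the differences of Adam23, and in those of Lgi4 and Cacng4 in the same cells, was not tested.

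In the DKO library the difference of Adam23 in astrocyte-like cells was -1.18 ± 0.27 (log2, SE; edgeR adjusted p = 0.124), a comparison that shares its control libraries with that of the cKO mice. As there is 1 DKO library, the spread behind its SEs and p-values comes from the control and cKO libraries, and the DKO library is assumed to vary like them. Over 13 alternatives the difference ran from -1.28 to -1.04 (log2). One of these took the replicate number as a block, a pairing that the check of replicate numbers did not show in astrocyte-like cells. No member was called in the DKO library in any of the 10 types (edgeR; 0 of 57, with 6 at an unadjusted p under 0.05, and 0 by DESeq2), where 0.0394% of all genes tested were called and 5.11% had an unadjusted p under 0.05.

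**Figure D4:**
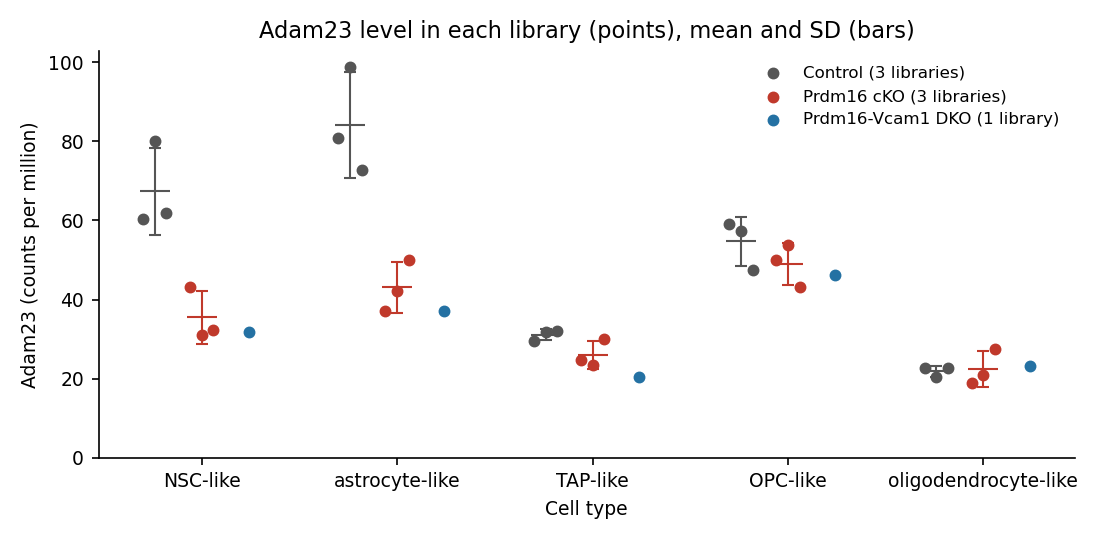
Adam23 level (CPM) in 5 cell types; points are libraries, and bars are the mean and SD of the 3 control (grey) or 3 cKO (red) libraries, beside the single DKO library (blue). All libraries with Cre lie below all control libraries in NSC-like and astrocyte-like cells, and the groups overlap in TAP-like, OPC-like and oligodendrocyte-like cells.

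In the other types Adam23 did not pass the test. In TAP-like cells it was 29.6, 31.7 and 32.1 CPM in control, 24.7, 23.4 and 30.0 in cKO and 20.5 in the DKO library, and 1 cKO library overlapped the controls. In OPC-like cells the control range was 47.5 to 59.1 and the cKO range 43.2 to 53.7, and in oligodendrocyte-like cells 20.3 to 22.6 and 18.8 to 27.5. In neuron-like cells, control libraries had 150.1 to 172 and cKO libraries 157 to 221, though Adam23 was lower without overlap in the Sst and Npy cluster, given below. In mural-like cells, where it was measured by few UMIs, the control range was 3.47 to 9.20 and the cKO range 1.47 to 3.43, with 3.02 in the DKO library. The cKO libraries were thus all below the controls there, by -1.48 ± 0.70 (log2, SE; edgeR adjusted p = 0.9998). In mural-like cells OPC markers (7 genes, up to 3 at 0) summed to 380.01 to 449 CPM in control and 310.4 to 365 in cKO, neuroblast markers (8 genes, at most 1 at 0) to 339 to 511 and 52.3 to 222, and endothelial markers (7 genes, none at 0) to 6193 to 6954 and 7108 to 8568. These lists were apart between the genotypes, and their part in the difference was not tested.

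Lgi1 in neuroblast-like cells did not pass the test, though its groups did not overlap. It stood at 13.3, 14.3 and 15.3 CPM in control libraries 1, 2 and 3, at 26.2, 30.4 and 35.5 in cKO libraries 1, 2 and 3 and at 18.2 in the DKO library. The difference of cKO and control was 1.10 ± 0.19 (log2, SE; edgeR adjusted p = 0.0665, with 0.0292% of genes called in this type), and it was 1.04 and 1.22 within the libraries of Cell Ranger 6.0.1 and 6.1.1. DESeq2 gave an adjusted p of 0.0054, and over 14 alternatives the adjusted p ran from 0.000225 to 0.445, under the threshold in 5.

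The neuroblast-like cells of the genotypes were not alike in makeup. At the finer clustering 9.60%, 6.55% and 14.6% of them in control libraries 1, 2 and 3 were grouped with neuron-like cells, against 11.1%, 29.5% and 32.1% in cKO libraries 1, 2 and 3 and 27.3% in the DKO library. Lgi1 stood at 178 ± 14.4 CPM in control (SD, n = 3), 129 ± 79.7 in cKO and 90.8 in the DKO library in a finer neuron-like cluster of 1799 cells led by Sst and Npy. This cluster did not hold neuroblast-like cells alone. In the 6305 cells that remained in the main neuroblast cluster, Lgi1 stood at 13.1, 12.98 and 13.1 CPM in control, 19.6, 24.8 and 25.0 in cKO and 11.4 in the DKO library, again without overlap. The fit at this clustering took in 6743 cells, since 2 smaller clusters were also named neuroblast-like, of which the smallest held all 8 astrocyte markers. Its difference of cKO and control was 0.79 (log2; edgeR adjusted p = 0.239). In such sums a change in the makeup of the cells and a change in RNA per cell cannot be told apart.

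In the other types Lgi1 overlapped between genotypes, though not in 1 of the neuron clusters. In ependymal-like cells it ranged from 26.8 to 68.3 CPM in control and 42.8 to 109 in cKO libraries, with 81.5 in the DKO library. In astrocyte-like cells it was 20.4 to 31.3 in control and 18.0 to 43.1 in cKO libraries, and in neuron-like cells 119 to 158 and 134 to 143. In the Sst and Npy neuron cluster it was 228 to 314 in control libraries and 206, 29.6 and 110.3 in cKO libraries 1, 2 and 3, without overlap, from 34 to 122 cells per cKO library. Lower without overlap in these cells were also Adam22 (105 to 175 CPM in control, 32.6 to 73.2 in cKO), Adam23 (70.7 to 89.9 and 8.89 to 57.0) and Lgi3 (22.6 to 54.5 and 0 to 17.5). Lgi4 was higher without overlap (0 to 0.908 and 2.71 to 5.93), but no higher than the 5.30 to 10.3 CPM of control microglia-like cells, taken as background. Lgi2 and Adam11 overlapped. In the finer cluster of 1799 cells, also led by Sst and Npy and so no separate check, Adam22 and Lgi3 were apart. Lgi1 (165 to 194 and 55.5 to 214), Adam23 and Lgi4 overlapped there. The share of all genes without overlap was not counted in either cluster, so these values cannot be set against it. In all neuron-like cells together, 500 of 13270 genes were above and 557 below the controls in every cKO library. Cell numbers in the Sst and Npy cluster of 446 cells differed between libraries, and neuron markers in all neuron-like cells summed to 12757 to 17662 CPM over 8 genes in control and 10027 to 12013 in cKO libraries, without overlap. The part of either in these differences was not tested.

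Lgi4 in astrocyte-like cells was 128, 169.7 and 144 CPM in control, 116, 118 and 120.1 in cKO and 113 in the DKO library. The Cre libraries were all below the controls, with a difference of -0.32 ± 0.16 for cKO (log2, SE; edgeR adjusted p = 0.533) that was -0.21 without control library 2 (-0.41 to -0.21 with 1 library left out). In ependymal-like cells Lgi4 was 2.32, 3.01 and 5.52 CPM in control, 7.496, 9.16 and 12.2 in cKO and 2.45 in the DKO library. Here all cKO libraries were above the controls, a difference of 1.28 ± 0.39 (log2, SE; edgeR adjusted p = 0.273) that was 1.93 without control library 3 (0.98 to 1.93 with 1 library left out), at levels like the 5.30 to 10.3 CPM of control microglia-like cells. Mural markers (7 genes, up to 2 at 0) summed to 399.7 to 608 CPM in control, 732 to 916 in cKO and 636 in the DKO library of ependymal-like cells. Neuroblast markers (8 genes, none at 0) summed there to 890.1 to 1044, 651 to 879 and 775. The mural and neuroblast lists were apart between control and cKO libraries. Most Lgi4 UMIs lie in NSC-like and astrocyte-like cells, whose lists overlapped between control and cKO in ependymal-like cells. Astrocyte markers (8 genes) summed to 1304 to 1619 CPM in control, 1570 to 1872 in cKO and 1294 in the DKO library. NSC markers (8 genes) summed to 1199 to 1635, 1442 to 1925 and 1730. The part of these lists in the difference of Lgi4 was not tested.

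Lgi3 in oligodendrocyte-like cells, its main source, was 326 to 416 CPM in control, 305 to 327 in cKO and 324 in the DKO library, with a difference of -0.19 ± 0.15 for cKO (log2, SE; edgeR adjusted p = 0.9999) that was -0.07 without control library 2. Lgi2 in neuron-like cells, its main source, was 32.5 to 56.3 in control and 42.4 to 49.1 in cKO, and both ligands overlapped between genotypes there. Adam22 in neuron-like cells was 101 to 140.1 in control and 107 to 169 in cKO libraries, which overlapped, though not in the Sst and Npy cluster given above. In OPC-like cells Adam22 was 61.0 to 64.5 in control and 57.3 to 58.5 in cKO, apart but by -0.11 ± 0.17 (log2, SE; edgeR adjusted p = 0.983), with 70.1 in the DKO library. Neuron markers (8 genes, none at 0) were also apart in OPC-like cells, at 427 to 488 CPM in control, 178 to 393 in cKO and 369 in the DKO library, and their part was not tested. Adam11 in astrocyte-like cells was 9.03, 11.7 and 5.20 CPM in control, 5.50, 1.72 and 3.80 in cKO and 1.61 in the DKO library, with overlap of 1 cKO library and a difference of -1.09 (log2; edgeR adjusted p = 0.377) that was -0.57 with at most 5% mitochondrial counts.

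The genes around the family were counted from 6 lists of 43 genes: 14 postsynaptic partners (PSD-95 family scaffolds, AMPA receptor subunits and their auxiliary subunits), 9 genes of the axonal potassium channel complex, 6 14-3-3 proteins, 3 Nogo receptors, 2 other genes with EPTP repeats and 9 ADAM proteases. Of 306 pairs of a gene and a type that passed the filter, 1 was higher and 0 were lower in cKO than in control (edgeR), where 0.149% of all genes tested in the 10 types were called. At an unadjusted p under 0.05 there were 20, where all genes had 5.37%. The 1 was Cacng4, an auxiliary subunit of AMPA receptors, in astrocyte-like cells. It stood at 8.64, 7.92 and 5.97 CPM in control libraries 1, 2 and 3, at 11.0, 23.2 and 24.8 in cKO libraries 1, 2 and 3 and at 14.2 in the DKO library, without overlap. The difference was 1.40 ± 0.32 (log2, SE; edgeR adjusted p = 0.0390), and DESeq2 gave an adjusted p of 0.0659. Leaving out a single library moved the edgeR adjusted p from 0.000638 to 0.351. In the DKO library 0 of the 306 pairs were called (edgeR), with 14 at an unadjusted p under 0.05, where all genes had 0.0394% and 5.11%.

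Among the lists, the postsynaptic partners had 111 tested pairs with 1 called, the potassium channel complex 68, the 14-3-3 proteins 60, the Nogo receptors 7, the other EPTP genes 7 and the ADAM proteases 53, with 0 called (edgeR). At an unadjusted p under 0.05 these had 11, 8, 1, 0, 0 and 0 pairs, beside 5.37% of all genes tested, and no list was tested as a set. The median difference of cKO and control over the members themselves was -0.74 to 0.24 (log2) in the 10 types, where that of all genes was -0.00449 to 0.0181. For the DKO library, with the same controls, the members' median was below 0 in all 10 types, from -1.63 in microglia-like cells, where 1 member was tested, to -0.07 in neuroblast-like cells, and that of all genes was -0.0459 to -0.00541.

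A further contrast lay within the Cre libraries. UMIs assigned to Prm1, protamine 1, known as a gene of sperm, were found in NSC-like cells of every library with Cre. The shares were 26.4%, 71.5% and 76.2% in cKO libraries 1, 2 and 3 and 40.3% in the DKO library. Control NSC-like cells had 1 Prm1 UMI in 2900 cells. The mark thus went with the hGFAP-Cre genotype, and whether its UMIs come from the Prm1 gene itself was not tested. NSC-like cells with and without a Prm1 UMI were summed apart in each library and compared with the library as a block. The cells with Prm1 were the deeper ones, with 9074 to 15037 UMIs per cell against 5701 to 9602, and what the mark stands for was not tested.

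By edgeR, 2 of the 5 members that passed the filter were called in NSC-like cells, where 7.87% of all genes were called. Adam23 stood at 35.2, 27.2 and 29.2 CPM in marked cells of cKO libraries 1, 2 and 3 and 23.0 in those of the DKO library, against 45.9, 45.1, 45.2 and 38.3 in unmarked cells of the same libraries. It was lower in marked cells in all 4 libraries and fell by 0.61 ± 0.12 on the log2 scale (SE; edgeR adjusted p = 0.00555). Without the DKO library the edgeR adjusted p was 0.0926, the highest of 10 alternatives. Over these the difference ran from -0.99 to -0.54 (log2), and from -0.70 to -0.54 with 1 library left out. Marked and unmarked cells did not overlap, and the unmarked ones were below the 60.2 to 80.0 CPM of control NSC-like cells, whose TMM scaling was separate.

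Lgi3 was 12.3, 12.3 and 16.9 CPM in marked cells of cKO libraries 1, 2 and 3 and 10.8 in the DKO library, against 3.83, 15.0, 10.5 and 5.36 in unmarked cells. It was higher in 3 of the 4 libraries, by 0.91 ± 0.27 (log2, SE; edgeR adjusted p = 0.0456), and DESeq2 gave an adjusted p of 0.288. Oligodendrocyte markers summed to 695 to 1209 CPM in marked and 781 to 1642 in unmarked cells, lower in marked cells in all 4 libraries. Leaving out 1 library at a time moved the edgeR adjusted p from 0.00677 to 0.33.

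Lgi1 was 22.4, 23.2 and 26.8 CPM in marked cells of cKO libraries 1, 2 and 3 and 13.3 in the DKO library, against 11.0, 30.1, 23.4 and 4.97 in unmarked cells. Marked cells were higher in 3 of 4 libraries, by 0.66 ± 0.25 (log2, SE; edgeR adjusted p = 0.132), which did not pass the test. The difference was 0.40 without the DKO library (edgeR adjusted p = 0.491) and 0.86 without cKO library 2 (edgeR adjusted p = 0.0164), and it also passed without the filter on low counts (edgeR adjusted p = 0.00753). In cKO library 2 there were only 61 unmarked NSC-like cells with 16 Lgi1 UMIs. The Lgi1 UMIs of cKO NSC-like cells also entered the choice of the family. The p-values for Lgi1 are therefore not independent of that choice and give it no separate support. Marked cells of the DKO library were above the 7.12 to 7.65 CPM of control NSC-like cells and unmarked ones below. Lgi4 (edgeR adjusted p = 0.316) and Adam22 (edgeR adjusted p = 0.2999) were lower in marked cells in all 4 libraries without passing the test. Adam22 was near equal in the DKO library, at 18.3 CPM in marked and 18.9 in unmarked cells.

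**Figure D5:**
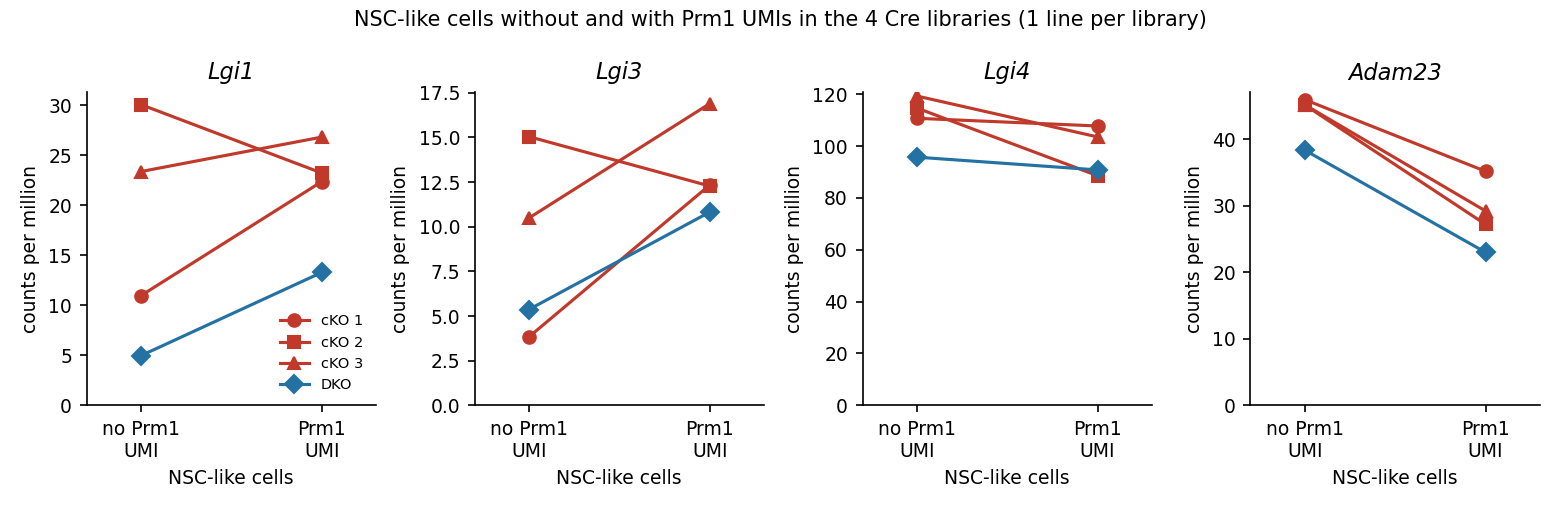
Lgi1, Lgi3, Lgi4 and Adam23 (CPM, 1 panel each) in NSC-like cells without and with Prm1 UMIs; each line joins both values of 1 library, red for the 3 cKO libraries and blue for the DKO library. All 4 lines go down for Lgi4 and Adam23, and 3 of 4 go up for Lgi1 and Lgi3.

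TAP markers summed to 346 to 414 CPM over 7 genes in marked and 515 to 713 in unmarked NSC-like cells, without overlap, and NSC markers to 6619 to 7093 and 5759 to 6201. Neuroblast markers were lower in marked cells in all 4 libraries (210.4 to 496 against 328 to 662 CPM), and neuron markers were higher in all 4 (696 to 943 against 645 to 895). The part of these lists in the differences of Adam23 and Lgi3 was not tested. In astrocyte-like cells 0 of the 4 members that passed the filter were called between marked and unmarked cells (edgeR, with 2 at an unadjusted p under 0.05, and 0 by DESeq2), where 0.828% of all genes were called. Adam23 was again lower in marked cells in 4 of 4 libraries, with means of 35.7 ± 10.1 and 48.1 ± 6.51 CPM (SD, n = 4) and a difference of -0.41 ± 0.17 (log2, SE; edgeR adjusted p = 0.315). It was -0.85 with cells marked by at least 2 Prm1 UMIs (edgeR adjusted p = 0.0478) and -0.23 with at most 5% mitochondrial counts. Lgi4 was 107 ± 8.21 and 129.5 ± 9.42 CPM in marked and unmarked cells, lower in 4 of 4 libraries (edgeR adjusted p = 0.238). Adam22 was higher in marked cells in 4 of 4 libraries, 15.1 ± 3.66 against 10.9 ± 5.19 CPM, by 0.39 ± 0.30 (log2, SE; edgeR adjusted p = 0.703; 0.58 without cKO library 3), where in NSC-like cells it was lower in all 4, and the difference between the types was not tested. Marked and unmarked astrocyte-like cells of cKO library 3 were near equal, at 17.7 and 17.5 CPM. Mural markers were lower in marked astrocyte-like cells in 4 of 4 libraries, at 99.4 to 143 against 141 to 151 CPM. Of the 43 genes of the 6 lists, 27 passed the filter in NSC-like cells for this contrast and 1 was called, where 7.87% of all genes were. This was Ywhae, a 14-3-3 protein gene, 0.27 ± 0.06 higher in marked cells (log2, SE; edgeR adjusted p = 0.00745). The edgeR adjusted p was 0.0572 without the DKO library, 0.0523 without cKO library 1 and 0.128 with at most 5% mitochondrial counts, past the threshold, and 10 alternatives ran from 0.000386 to 0.128.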

How the data were processed

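Single cells of the V-SVZ were profiled with 10x 3′ chemistry in 7 libraries. The authors deposited raw UMI counts per gene and cell, made with Cell Ranger on mm10; the file headers name versions 6.0.1 (control and cKO libraries 1 and 2) and 6.1.1 (the others). All 32285 features were used, of which 32158 were found in GENCODE vM21.

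Cells with 500 to 7000 genes and at most 10% mitochondrial counts were kept. They were integrated with Seurat 5.3.0 (2000 variable features, 30 components) and clustered at resolution 0.15, and clusters were named from marker lists. Doublets were scored with Scrublet (scanpy 1.11.5), which marked 2.19% of cells, and were left in except in an alternative. Counts were summed per library and type and tested with edgeR 4.0.16 (filterByExpr, TMM, quasi-likelihood test, 1 fit of all 7 libraries in 3 groups, R 4.3.3), with Benjamini-Hochberg adjustment over all genes of a type and a threshold of 0.05. DESeq2 1.42.0 was an alternative, beside others on filters, blocks, left-out libraries and clustering. With 3 against 3 libraries an exact permutation test cannot go below 0.1. On simulated counts in which 200 genes had a log2 change of 1, 70.5% were recovered in NSC-like cells (14501 genes) and 74.5% in astrocyte-like cells (12131 genes). The changed genes were drawn only from those above a minimum level, and the DKO library was given the same change. These shares therefore do not cover members at low levels, such as Adam11 in astrocyte-like cells. The other types were not simulated.

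Named genes were the 7 members, genes of the 6 lists that were called, and the 3 genes most alike to each member among those at 20 CPM or more in a type. Members and lists were chosen with earlier results of these data known. The replicate numbers of the labels were checked for pairing by the correlation of deviations from group means: all 3 pairs were over 0.1 in endothelial-like (0.23, 0.12 and 0.45) and oligodendrocyte-like cells (0.53, 0.12 and 0.43), and not in the other types. In those other types the replicate block rests on a pairing that this check did not show. The check covered control and cKO libraries and not the DKO library.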

Additional observations from a re-analysis of the deposited data

Results flagged for a closer look

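Lgi4 was picked out because it moved in opposite directions in 2 cell types under the same contrast. It was higher in every cKO library than in every control library in ependymal-like cells, by 1.28 on the log2 scale (0.98 to 1.93 with 1 library left out, the highest without control library 3), and lower in every cKO library in astrocyte-like cells, by -0.32 (-0.41 to -0.21, the smallest without control library 2). The ependymal-like levels, 2.32 to 5.52 CPM in control and 7.496 to 12.2 in cKO, were like the 5.30 to 10.3 of control microglia-like cells. Groups without overlap occurred in 6 of 57 pairs of a member and a type, near the 10.8% of all genes tested. Neither difference passed the edgeR test on its own, and the difference between the 2 cell types was not tested.

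Adam22 was picked out in the same way between cells with and without Prm1 UMIs. In astrocyte-like cells it was higher in marked cells in 4 of 4 libraries, by 0.39 on the log2 scale (0.58 without cKO library 3), from 3 to 35 UMIs per library and kind of cell, and in NSC-like cells it was lower in 4 of 4, by -0.29. Neither difference passed the edgeR test, and the difference between the cell types was not tested. Marked and unmarked cells were near equal in cKO library 3 for astrocyte-like cells (17.7 and 17.5 CPM). They were also near equal in the DKO library for NSC-like cells (18.3 and 18.9 CPM).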

How the results depend on the processing

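No called result reported changed direction under the alternatives run for it, and the difference of Adam22 in NSC-like cells, near 0, was -0.04 to 0.35 (log2). The 1 member called between cKO and control became 2 with DESeq2, without the filter on low counts, with the replicate block and with the Cell Ranger version as a block, each adding Lgi1 in neuroblast-like cells, and ranged from 0, without control library 2 or cKO library 2, to 2, without cKO library 1, when 1 library was left out. The 0 members called for the DKO library became 1 without the filter and 3 with the replicate block, and 0 to 1 with a library left out. The 1 partner gene called became 0 with DESeq2, at most 5% mitochondrial counts or resolution 0.3, 9 without the filter, 8 with the replicate block and 4 with the version block, and ranged from 0 to 9 with a library left out, 9 without cKO library 1 and 0 without any other cKO or control library. The 2 members called between Prm1-marked and unmarked cells became 1 with DESeq2, at most 5% mitochondrial counts or without doublets and 3 without the filter, and ranged from 0, without the DKO library, and 1, without cKO library 1 or 3, to 3, without cKO library 2; without the filter or cKO library 2, Lgi1 passed. The Lgi1 UMIs of cKO NSC-like cells also entered the choice of the family, so a pass of Lgi1 there is not independent of it. Without thinning, the mean share of NSC-like cells with Lgi1 moved from 1.15% to 5.10% in control and from 4.65% to 16.4% in cKO libraries. Over 14 alternatives the difference of Lgi1 in NSC-like cells was 1.43 to 1.85 and that of Adam23 in astrocyte-like cells -1.09 to -0.82 (log2). Alternatives for Ywhae and for the differences printed for Adam23 in mural-like, Adam22 in OPC-like, Lgi3 in oligodendrocyte-like and Adam11 in astrocyte-like cells, and for Adam22 and Lgi4 in both types and Adam23 in astrocyte-like cells between Prm1-marked and unmarked cells, were chosen after seeing the data. None of these reversed. By over 1.5 times on the log2 scale, Adam22 in OPC-like cells moved to -0.05 at resolution 0.3, and between marked and unmarked cells, at most 5% mitochondrial counts moved Lgi4 to -0.44 in astrocyte-like and -0.24 in NSC-like cells and Adam22 to -0.15 in NSC-like cells, at least 2 Prm1 UMIs moved Lgi4 to -0.23 in NSC-like cells, and resolution 0.3 moved Adam22 to -0.16 there. The Ywhae difference between Prm1-marked and unmarked cells was 0.24 to 0.34 (log2), called in 7 of 10.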

Other observations

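One of the unnamed clusters, 3337 cells with few UMIs that were led by haemoglobin genes, also had Lgi4 among its 10 leading genes. The NSC markers Gfap, Thbs4 and Hes5 were raised in it. At resolution 0.3 haemoglobin genes led a separate cluster of 246 cells. An unnamed cluster of 3212 cells with few UMIs was led there by Lgi4 and held 7 of 8 astrocyte markers and 5 NSC markers. How many cells it shared with the cluster of 3337 was not counted. In the cluster of 3337 cells Adam23 stood at 50.2, 112 and 57.5 CPM in control libraries 1, 2 and 3, at 59.7, 39.9 and 31.7 in cKO libraries 1, 2 and 3 and at 27.5 in the DKO library. Lgi1 stood there at 7.72 to 17.3 CPM in control and 12.6 to 27.6 in cKO libraries. The groups overlapped for both genes, and no test was run in this cluster.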
